A study of Mus musculus with 9 samples.

Results

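The Rab GTPases and the ESCRT machinery, which form, sort and release the vesicles of the endosomal system, were followed in mouse lung after an injection of tumour exosomes. The genes were chosen by symbol and not by any measured value, though with earlier results of these data known. They comprised every gene whose symbol was Rab with a number and up to 1 letter (50 genes), Chmp with a number (9) or Vps with 4, 25, 28, 36 or 37 (10), together with Tsg101, Hgs, Stam, Stam2, Pdcd6ip, Sdcbp, Rala and Ralb (8). This gave 77 of the 12393 genes that had a probe set of their own, and 144 of 22626 probe sets. The Vps pattern also caught Vps41, a subunit of the HOPS tethering complex, and Vps45, an SM protein of endosomal fusion, which are not ESCRT genes and are given apart.

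The animals were C57BL/6 mice, and all 9 samples were lung. Lungs were taken and kept in RNA-later 24 h or 48 h after 10 µg of exosome protein of the mouse melanoma line B16-F10, which spreads to lung, had been injected into the tail vein, and each time had 3 arrays. The control group also had 3 arrays, and the sources used here do not say what its mice received, nor the age or sex of any animal. The labels call the samples biological replicates and mention 3 mice at each time, with the experiment done in triplicate, but they do not tell single mice from pools. Any p-value therefore rests on the variation among these 9 arrays, part of which may be technical.

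Before the results, 2 facts about the arrays matter. The authors' table for the whole series carries other group labels than the sample files for the same values: its columns labelled 24 h, 48 h and control hold the control, 24 h and 48 h files, with control replicates 1 and 2 exchanged. The sample files were used here because the names written inside them (0 h, 24 h and 48 h) matched their groups, and every group and direction below follows their labels. Which labelling is right was not settled: with the other labels 58 of the values checked changed sign, among them Chmp4c at 24 h, from -0.55 to 0.42 on the log2 scale. The arrays numbered 1 also stood apart from the others in all 3 groups, at -25.96 to -24.45 on a first principal component that held 41.9% of the variance, where the other 6 arrays lay at 4.68 to 18.04. Between 69.93% and 72.61% of probe sets were detected on each array, and markers of alveolar type 2, airway and endothelial cells were detected in every group. Of the 5 melanocyte and melanoma markers on the array, Pmel, Tyrp1 and Dct were detected on 0 of 9 arrays. Only Mitf was tested, with log2 changes of 0.179 at 24 h and 0.163 at 48 h that did not pass. The summed signal of the list was 387 to 426 in controls, 426 to 533 at 24 h and 461 to 492 at 48 h. This sum was taken before normalisation and includes the undetected genes, so part of it may be background. The source of this signal was not tested.

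Exosomes begin as vesicles that bud into a late endosome, which is then called a multivesicular body. ESCRT-0, ESCRT-I and ESCRT-II collect ubiquitinated cargo, ESCRT-III filaments cut the bud from the membrane, and the Vps4 ATPases take the filaments apart, while Alix (Pdcd6ip) and syntenin (Sdcbp) load cargo by a parallel route. Rab GTPases mark each membrane and guide its traffic: Rab5 proteins act on early endosomes, Rab7 directs late endosomes to lysosomes, Rab11 serves recycling, and Rab27a and Rab27b dock multivesicular bodies and secretory granules at the cell surface. In lung, alveolar type 2 cells secrete surfactant from lamellar bodies, and platelets and mast cells release Rab27-dependent granules. Messenger RNA levels in the recipient lung do not measure the injected vesicles themselves.

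Promoter sequence was available for 61 of the 77 genes in RefSeq (assembly GRCm38.p6, from 250 bases before to 50 after each gene's start). Letters were searched in the 250 bases before the start, and a gene with several starts counted once if any of them held the letters. The E-box letters CACGTG, which read the same on both strands, were found for 7 of the 61 genes (11.5%), against 7.61% of 17491 coding genes and 9.93% of tested genes with such sequence. The longer form GTCACGTG, searched on both strands and always overlapping an E-box, were found for 4 genes (6.56%, against 2.65% and 3.81%). E-boxes of this kind are read by the MiT family of factors, which drive lysosomal genes in other settings. Stretches of 60 bases follow for those 4 genes and for Rab27a, whose E-box lacks the longer form, with the E-box in capitals. They are shown because Pdcd6ip, Rab5a, Ralb and Rab27a are the exosome genes described in each comparison and Rab21 shares the longer form with them.
Pdcd6ip: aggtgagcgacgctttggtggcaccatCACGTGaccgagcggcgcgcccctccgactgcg
Rab5a: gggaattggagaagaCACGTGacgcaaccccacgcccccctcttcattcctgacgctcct
Rab21: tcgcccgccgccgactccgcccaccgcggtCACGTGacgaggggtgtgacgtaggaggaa
Ralb: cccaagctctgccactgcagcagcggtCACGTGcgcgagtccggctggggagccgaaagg
Rab27a: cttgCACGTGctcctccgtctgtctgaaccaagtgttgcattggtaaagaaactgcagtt

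The Pdcd6ip stretch is chr9:113708265-113708324 on the minus strand, 65 to 6 bases before the start, and that of Rab5a is chr17:53478984-53479043 on the plus strand, 250 to 191 bases before it. The Rab21 stretch is chr10:115315592-115315651 on the minus strand, 60 bases to 1 base before the start. The Ralb stretch is chr1:119504908-119504967 on the minus strand, 185 to 126 bases before the start, and that of Rab27a is chr9:73063898-73063957 on the plus strand, 250 to 191 bases before it. A match describes the letters and is not evidence of binding.

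By CG content, taking the highest count of a gene's starts, the median was 19 CG, against 11 over coding genes and 17 over tested genes. The GC box letters GGGCGG were found for 42 genes (68.9%, against 45.8% and 63.8%), CCAAT in 27 (44.3%, against 39.5% and 40.0%), and TATAAA in 3 (4.92%, against 13.7% and 8.56%), each counted on both strands. The cyclic AMP element TGACGTCA was in 2 (3.28%, against 2.2% and 2.83%). Further stretches of 120 bases before the start are given for Rala and Rab5b, which were higher on the replicate 1 arrays, and for Rab3a, which was lower there. Capitals mark the GC boxes (GGGCGG or CCGCCC) and the CCAAT boxes (CCAAT or ATTGG).
Rala: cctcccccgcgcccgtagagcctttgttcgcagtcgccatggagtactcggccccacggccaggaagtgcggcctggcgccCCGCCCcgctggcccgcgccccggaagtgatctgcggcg
Rab5b: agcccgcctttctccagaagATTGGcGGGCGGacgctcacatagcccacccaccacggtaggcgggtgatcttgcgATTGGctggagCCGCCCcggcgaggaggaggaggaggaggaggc
Rab3a: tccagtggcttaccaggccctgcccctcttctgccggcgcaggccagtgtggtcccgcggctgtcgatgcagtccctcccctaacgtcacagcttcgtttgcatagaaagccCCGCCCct

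They lie at chr13:17944218-17944337 on the minus strand (Rala), chr10:128696269-128696388 on the minus strand (Rab5b) and chr8:70754583-70754702 on the plus strand (Rab3a). For Rab3a and Rab27a the stretch belongs to 1 of 2 annotated starts. The Rab5b stretch held 2 GC boxes and 2 CCAAT boxes, and the other pair held 1 GC box each and 0 CCAAT boxes. The gene that was higher and the gene that was lower on the replicate 1 arrays thus shared the GC box.

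Nearly the whole machinery was expressed in lung. Of the 77 genes, 72 were detected (detection p under 0.05) on all 9 arrays, and 75 entered the test, for which a gene had to be detected on every array of at least 1 group. All 3 ESCRT-0, 5 ESCRT-I, 2 ESCRT-II and 9 ESCRT-III genes were detected on all 9 arrays, as were the 4 genes of the Vps4, Alix and syntenin group, the 2 Ral genes, the 13 Rabs of early and recycling endosomes and the 8 of late endosomes and lysosome-related organelles. The secretory Rabs Rab3b and Rab37 were detected on 0 arrays and not tested, with signals of 4.8 to 23.8 and 4.7 to 34.0. Rab3c, a secretory vesicle Rab, was detected on 7 arrays and the Golgi Rabs Rab33a and Rab30 on 6 and 4. Each gene was read by the probe set that was brightest on average. A probe set's level was set only against its own level on other arrays, on the scale log2(signal + 16) after quantile normalisation.

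For the genes best known from exosome release, the 3 groups overlapped. Rab27a, which docks multivesicular bodies, read 5.69, 5.52 and 6.01 in control replicates 1, 2 and 3, 5.65, 5.37 and 5.90 at 24 h, and 5.82, 5.42 and 5.81 at 48 h. Its signal was dim, at 24.1 to 49.1. Replicate 2 was the lowest array in each group, and the groups overlapped throughout.

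Rab11a, the recycling endosome Rab, read 11.52, 11.55 and 11.54 in controls, 11.51, 11.47 and 11.56 at 24 h, and 11.63, 11.42 and 11.56 at 48 h. Tsg101, the ESCRT-I subunit that binds ubiquitinated cargo, read 9.22, 9.40 and 9.24 in controls, 9.33, 9.63 and 9.44 at 24 h, and 9.44, 9.33 and 9.56 at 48 h. The Tsg101 means were 9.29 ± 0.09 in controls, 9.47 ± 0.15 at 24 h and 9.45 ± 0.11 at 48 h (SD, n = 3). Control replicate 2 lay inside the range of both exosome groups, so the higher means did not separate the groups.

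**Figure D1:**
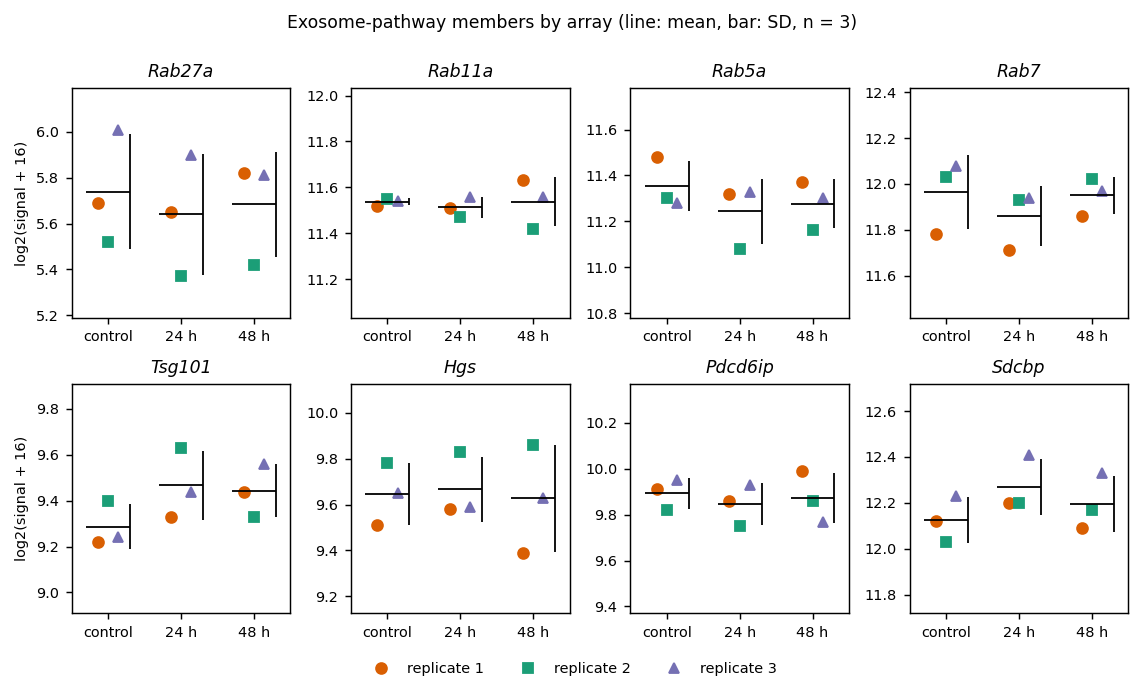
Level of 8 exosome pathway genes on each array, as log2(signal + 16) after quantile normalisation (vertical axis), for control, 24 h and 48 h lungs. Symbols mark replicate numbers, horizontal lines the group means and bars the SD (n = 3), and in each panel the groups overlap. Rab11a spans 11.42 to 11.63 and Tsg101 spans 9.22 to 9.63.

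Syntenin (Sdcbp), the adaptor that links cargo to Alix, read 12.12, 12.03 and 12.23 in controls, 12.20, 12.20 and 12.41 at 24 h, and 12.09, 12.17 and 12.33 at 48 h. Alix (Pdcd6ip) read 9.91, 9.82 and 9.95 in controls, 9.86, 9.75 and 9.93 at 24 h, and 9.99, 9.86 and 9.77 at 48 h. Hgs, the ESCRT-0 subunit that recognises ubiquitin, read 9.51, 9.78 and 9.65 in controls, 9.58, 9.83 and 9.59 at 24 h, and 9.39, 9.86 and 9.63 at 48 h. Replicate 3 was the highest Sdcbp array and replicate 2 the highest Hgs array in every group. Spread within groups was typical of the array: the median pooled SD was 0.179 over the 75 tested genes and 0.181 over all 9215 tested genes. It was widest for Rab27b (0.757), Rab5b (0.527), the epithelial Rab17 (0.419), Rala (0.356) and Rab3a (0.35).

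At 24 h after exosomes, 0 of the 75 genes differed from control by limma (adjusted p under 0.05), where the share over all tested genes was also 0.0% (0 of 15886 probe sets). Changes were small and split evenly, with 38 genes above and 37 below 0. Their median log2 change was 0.0, against 0.002 over all tested genes, and single genes ran from -0.55 to 0.23. An unadjusted p under 0.05 was found for 1 gene, Chmp4c, against 1.06% of all tested genes, and with the replicate number in the model the counts were again 0 and 1 (2.84% of all tested genes).

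By role, 6 of 12 secretory Rabs, 5 of 13 early and recycling endosome Rabs, 1 of 8 late endosome Rabs and 6 of 11 Rabs of the ER and Golgi lay above 0 at 24 h. Among ESCRT genes 2 of 3 of ESCRT-0, 3 of 5 of ESCRT-I, 1 of 2 of ESCRT-II and 6 of 9 of ESCRT-III did so. The late endosome Rabs had a median log2 change of -0.04 and none passed. The lowest of them was Rab32, a Rab of melanosomes and other lysosome-related organelles, at 0.868-fold (95% interval 0.689 to 1.09). Rab7 itself was at 0.933-fold (0.771 to 1.13).

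The lowest value at 24 h was that of Chmp4c, an ESCRT-III filament subunit that also acts in cell division. It read 7.05, 6.98 and 6.90 in controls, 6.27, 6.05 and 6.97 at 24 h, and 6.48, 6.32 and 6.87 at 48 h. The first and second array of each exosome group were low while the third was near the controls, so the 24 h group overlapped the controls and the 48 h group lay just below them. The 24 h change was 0.685-fold (0.481 to 0.975, adjusted p = 1.0 by limma), with pair differences of -0.78, -0.92 and 0.07 on the log2 scale. Its signal was dim, at 48.5 to 120.9. A second tested Chmp4c probe set gave log2 changes of 0.10 at 24 h and 0.05 at 48 h, of the opposite sign.

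The other low genes by moderated t at 24 h, none past the threshold, were Vps45 at 0.799-fold (0.625 to 1.02), the endosome-to-Golgi Rab14 at 0.887-fold (0.743 to 1.06), Rab32, and the ESCRT-III gene Chmp1b at 0.869-fold (0.646 to 1.17). The highest were Tsg101 at 1.13-fold (0.940 to 1.36), the Golgi Rab30 at 1.17-fold (0.906 to 1.52) and Sdcbp at 1.11-fold (0.926 to 1.33). Rab12, which acts between recycling endosomes and lysosomes, was at 1.13-fold (0.897 to 1.41) and Rab25, the epithelial relative of Rab11, at 1.16-fold (0.859 to 1.58). Each interval here included 1 and each adjusted p was 1.0.

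Groups did not overlap at 24 h for 2 of the 75 genes, where 3.91% of all tested genes had this property. Rab14 read 12.03, 12.00 and 12.19 in controls and 11.93, 11.80 and 11.97 at 24 h, all lower. Vps36, the ESCRT-II subunit that binds ubiquitin, read 8.94, 8.69 and 8.95 in controls and 9.15, 8.95 and 8.96 at 24 h with the lowest 24 h array level with the highest control at this rounding. The other 5 Rab14 probe sets had log2 changes of -0.11 to 0.06, and the other Vps36 probe set one of 0.05.

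Genes of the exosome route with values near 1 at 24 h were Rab27a at 0.934-fold (0.704 to 1.24), Rab11a at 0.984-fold (0.844 to 1.15), Rab5a at 0.927-fold (0.771 to 1.11), Hgs at 1.01-fold (0.808 to 1.27) and its partner Stam at 1.06-fold (0.873 to 1.28). Alix was at 0.968-fold (0.820 to 1.14), Vps4a at 1.02-fold (0.806 to 1.30), Vps4b at 1.01-fold (0.854 to 1.20) and the ESCRT-III gene Chmp4b at 1.01-fold (0.859 to 1.19). The exocyst-binding GTPases Rala and Ralb were at 1.06-fold (0.720 to 1.55) and 0.969-fold (0.800 to 1.17), and Rab1a, the ER-to-Golgi Rab, at 1.01-fold (0.761 to 1.33). Much wider intervals belonged to Rab5b at 0.981-fold (0.569 to 1.69) and Rab27b at 0.915-fold (0.423 to 1.98). The 95% interval lay within 1.5-fold either way for 63 of the 75 genes, against 82.8% of all tested genes. A miss of the threshold does not show equal levels. No marker gene of another cell type passed the test at 24 h by limma. All 6 tested cardiac muscle markers (median -0.333) and all 6 neutrophil markers (median -0.217) were below 0, and all 3 adipocyte markers were above it (median 0.417). The other lists had medians of -0.11 to 0.179. These are bulk samples, in which fewer cells of a type and less RNA per cell cannot be told apart.

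**Figure D2:**
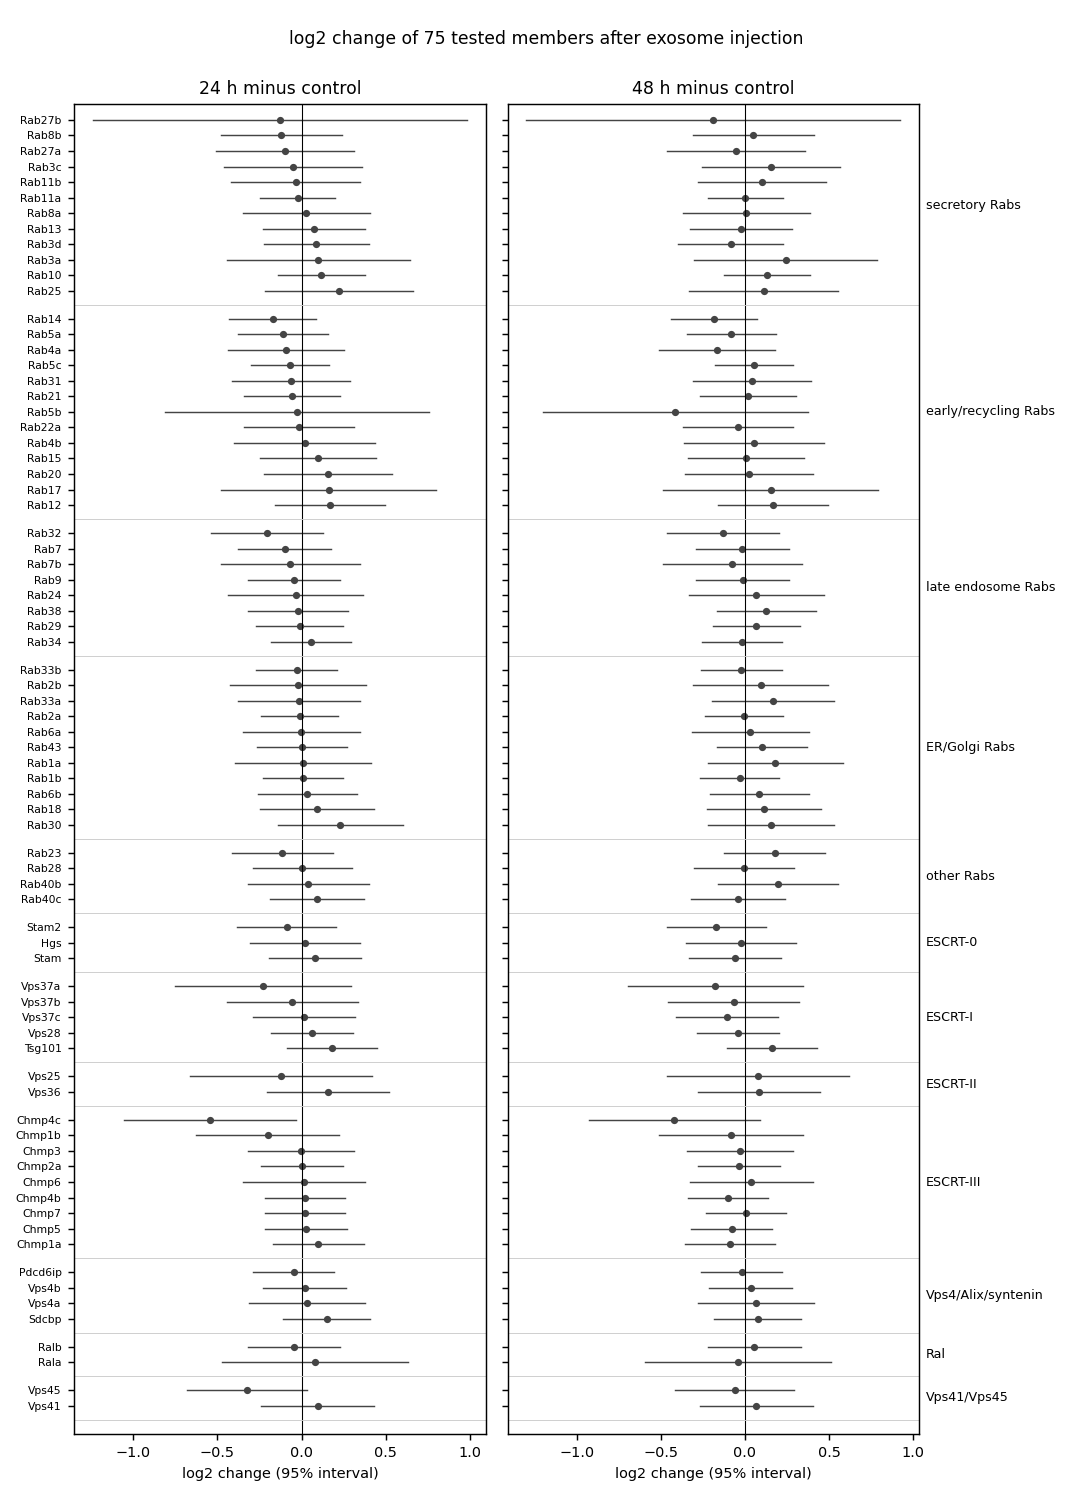
Log2 change of the 75 tested genes (points) with 95% intervals (lines), from limma, at 24 h (left) and 48 h (right) against control, grouped by role. At 24 h the points run from -0.55 to 0.23 and at 48 h from -0.42 to 0.24. Rab27b and Rab5b have the widest intervals.

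At 48 h after exosomes, again 0 of 75 genes differed from control by limma, with 0.0% over all probe sets, and 0 had an unadjusted p under 0.05 (1.3% of all tested genes). With the replicate number in the model 0 passed and 3 had an unadjusted p under 0.05 (Chmp4c, Rab5b and Rab3a), against 4.13% of all tested genes. There were 39 genes above and 36 below 0, with a median log2 change of 0.005 against -0.005 over all tested genes, and a range of -0.42 to 0.24. Of the ESCRT genes 0 of 3 of ESCRT-0, 1 of 5 of ESCRT-I, 2 of 2 of ESCRT-II and 2 of 9 of ESCRT-III lay above 0, and the ESCRT-III median was -0.078. Of the Rabs of the ER and Golgi 8 of 11 lay above 0 with a median of 0.094, and of the secretory Rabs 8 of 12. No gene of any of these roles passed the test.

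The lowest genes by moderated t at 48 h were Chmp4c at 0.748-fold (0.525 to 1.06), Rab14 at 0.880-fold (0.736 to 1.05), the ESCRT-0 gene Stam2 at 0.888-fold (0.725 to 1.09), Rab5b at 0.751-fold (0.435 to 1.30) and Rab4a, a Rab of fast recycling, at 0.891-fold (0.702 to 1.13). Tsg101 stood at 1.12-fold (0.927 to 1.34) and Rab23, a negative regulator of hedgehog signalling, at 1.13-fold (0.918 to 1.39). The other high genes were Rab40b at 1.15-fold (0.895 to 1.47), Rab12 at 1.12-fold (0.895 to 1.41) and Rab10, which carries vesicles to the cell surface, at 1.09-fold (0.916 to 1.31). Each adjusted p was 1.0, and the interval of each included 1.

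Groups did not overlap at 48 h for Chmp4c and Stam2, both lower, which is 2 of 75 against 4.38% of all tested genes. Stam2 read 8.45, 8.48 and 8.50 in controls and 8.15, 8.45 and 8.33 at 48 h, where the middle 48 h array all but touched the controls. Its other 3 tested probe sets had log2 changes of 0.10, 0.02 and 0.0.

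The remaining genes of the exosome route at 48 h were Rab27a at 0.964-fold (0.726 to 1.28), Rab11a at 1.0-fold (0.859 to 1.17), Rab5a at 0.946-fold (0.786 to 1.14) and Rab7 at 0.989-fold (0.818 to 1.20). Hgs was at 0.984-fold (0.785 to 1.23), Stam at 0.959-fold (0.793 to 1.16), Alix at 0.987-fold (0.836 to 1.16) and syntenin at 1.05-fold (0.880 to 1.26). Vps4a was at 1.05-fold (0.823 to 1.33), Vps4b at 1.02-fold (0.863 to 1.22) and Chmp4b at 0.932-fold (0.791 to 1.10). Rala was at 0.971-fold (0.662 to 1.42), Ralb at 1.04-fold (0.859 to 1.26), Rab1a at 1.13-fold (0.857 to 1.50) and Rab27b at 0.878-fold (0.406 to 1.90). The interval lay within 1.5-fold either way for 67 of 75 genes, against 81.2% of all tested genes. At 48 h all 6 cardiac muscle markers (median -0.324), all 5 B cell markers (median -0.367) and all 4 T cell markers (median -0.101) were below 0, with 0 past the threshold, and their part in any value above was not tested. The 24 h and 48 h comparisons share their control arrays, so likeness between them, such as that of Chmp4c and Rab14, is not repeated evidence.

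Between the times themselves, 0 of 75 genes passed at 48 h against 24 h (0.0% over all probe sets), and 0 had an unadjusted p under 0.05 (1.49% of all tested genes). With the replicate number in the model 0 passed and 2 had an unadjusted p under 0.05, Rab5b and Rab23 (4.85% of all tested genes). The interval lay within 1.5-fold either way for 65 genes, against 80.2% of all tested genes. There were 39 genes above 0 and 36 below, with a median of 0.007 against -0.007 over all tested genes, and the groups overlapped for all 75, where 4.4% of all tested genes did not overlap. Rab23 was at 1.22-fold (0.994 to 1.51), with differences of 0.38, 0.25 and 0.24 in the 3 pairs, and its second probe set had a log2 change of -0.15. Of the marker genes 0 passed by limma: all 6 neutrophil markers were above 0 (median 0.253), and all 5 B cell (median -0.336), 4 T cell (median -0.103) and 3 adipocyte markers (median -0.164) were below it. After Rab23 came Vps45 at 1.20-fold (0.939 to 1.54), the early endosome Rab5c at 1.09-fold (0.928 to 1.28), Rab38, the lysosome-related organelle Rab of lamellar bodies, at 1.11-fold (0.904 to 1.36), and Rab3c at 1.15-fold (0.867 to 1.53).

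The lowest between the times were Chmp1a of ESCRT-III at 0.877-fold (0.728 to 1.06), the secretory granule Rab3d at 0.886-fold (0.713 to 1.10), Stam at 0.909-fold (0.752 to 1.10), Chmp4b at 0.921-fold (0.781 to 1.09) and Rab5b at 0.766-fold (0.444 to 1.32). Of the other exosome genes, Rab27a was at 1.03-fold (0.778 to 1.37), Rab27b at 0.960-fold (0.444 to 2.07), Rab11a at 1.02-fold (0.873 to 1.19), Rab7 at 1.06-fold (0.876 to 1.28) and Rab5a at 1.02-fold (0.848 to 1.23). Tsg101 was at 0.986-fold (0.819 to 1.19), Hgs at 0.972-fold (0.775 to 1.22), Alix at 1.02-fold (0.864 to 1.20) and syntenin at 0.950-fold (0.793 to 1.14). Vps4a and Vps4b stood at 1.02-fold (0.805 to 1.30) and 1.01-fold (0.852 to 1.20). Rala was at 0.920-fold (0.627 to 1.35), Ralb at 1.07-fold (0.887 to 1.30) and Rab1a at 1.13-fold (0.852 to 1.49). Every adjusted p was 1.0.

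More of the 75 genes passed between replicate numbers than between groups, as did more of all tested genes. The comparisons are not alike, because that of replicate numbers sets 3 arrays against 6 in another model. No gene passed between groups with the replicate number in the model either. Arrays numbered 1 were set against those numbered 2 and 3 in a limma model that also held the group, a comparison chosen with the separation of these arrays known and given as a description. Of the 75 genes 16 passed, 6 higher and 10 lower on the replicate 1 arrays. Over all tested genes 18.8% passed, 8.58% higher and 10.2% lower (20.1% of probe sets), so the share among the Rab and ESCRT genes was near the background, and their median log2 difference of -0.023 was that of all tested genes. The count rests on few arrays: it was 4 without control replicate 1, 5 without 24 h replicate 1 and 7 without 48 h replicate 1, and 11 to 13 in the 6 fits without another array. With the labels of the authors' series table, in which control replicate 2 takes the place of control replicate 1, it was 0.

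Rab27b showed the largest difference of the 75. It read 9.19, 9.33 and 8.68 on the replicate 1 arrays of control, 24 h and 48 h lungs, 7.95, 7.73 and 7.81 on the replicate 2 arrays, and 7.87, 7.56 and 7.95 on the replicate 3 arrays. Every replicate 1 array was above the other 6. The level was 2.39-fold higher (95% interval 1.88 to 3.03, adjusted p = 0.00401 by limma), and a second Rab27b probe set gave a log2 difference of 0.86 (adjusted p = 0.00389). Its close relative Rab27a differed by 1.04-fold (0.914 to 1.17, adjusted p = 0.673). Only 1 of 3 Rab27a probe sets was tested, at a dim signal of 24.1 to 49.1, where the offset makes changes look smaller.

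Rala, which binds the exocyst complex of vesicle tethering, read 10.16, 10.23 and 10.13 on the replicate 1 arrays and 9.39 to 9.68 on the other 6, without overlap. It was 1.51-fold higher (1.36 to 1.69, adjusted p = 0.00359), and a second probe set was higher too (log2 0.37, adjusted p = 0.0284). Its relative Ralb was at 0.910-fold (0.789 to 1.05, adjusted p = 0.311) by the reported probe set, whose suffix marks possible cross-hybridisation, and at a log2 difference of -0.65 (adjusted p = 0.00426) by another. The Ral pair therefore lay on opposite sides of 0 by every tested probe set, with that of Ralb past the threshold by 1 of 2.

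Rab5b, an early endosome Rab, read 7.79, 7.87 and 6.98 on the replicate 1 arrays, 7.23, 7.11 and 6.89 on the replicate 2 arrays and 6.61, 6.57 and 6.52 on the replicate 3 arrays. Replicate 3 was the lowest in each group, and the 48 h replicate 1 array lay inside the range of replicate 2. Rab5b was 1.65-fold higher (1.32 to 2.06, adjusted p = 0.0129), while its paralogue Rab5a was at 1.11-fold (0.985 to 1.25, adjusted p = 0.185). The remaining higher genes were Rab1a at 1.29-fold (1.12 to 1.50), the ESCRT-III subunit Chmp6 at 1.25-fold (1.10 to 1.43) and the Golgi Rab6a at 1.22-fold (1.07 to 1.39). The Rab1a log2 difference of 0.37 became 0.24 with median centring, and its second probe set missed the threshold (adjusted p = 0.0654).

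**Figure D3:**
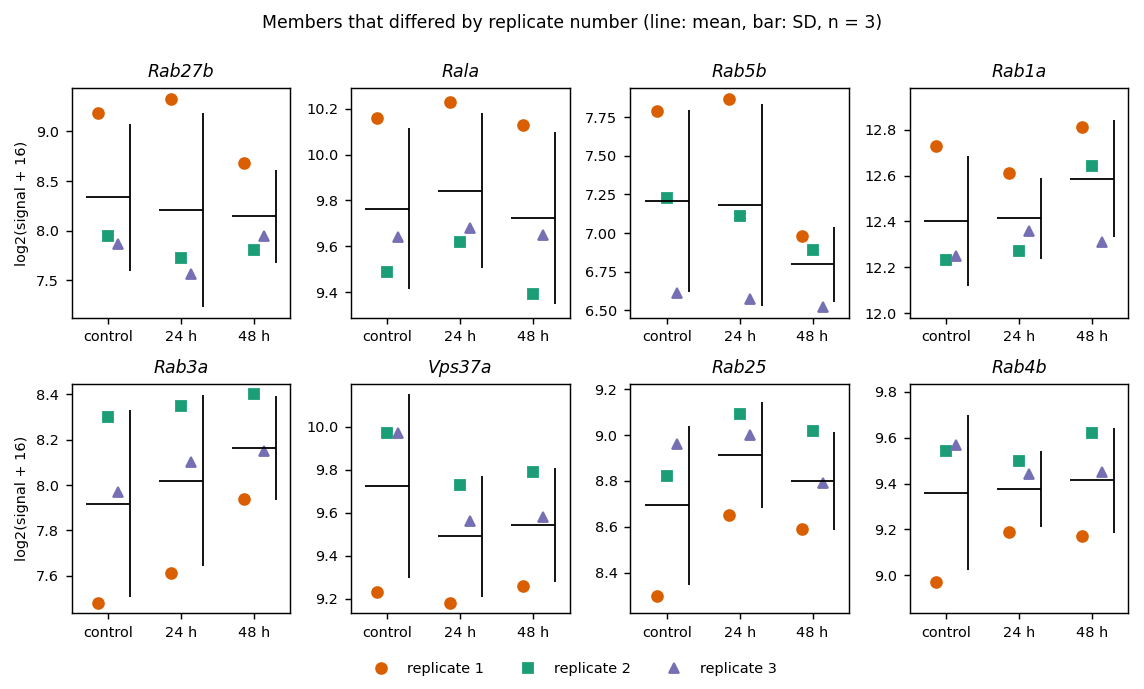
Level of 8 of the genes that differed by replicate number, as log2(signal + 16) after quantile normalisation (vertical axis), in control, 24 h and 48 h lungs. Symbols mark replicate numbers, lines the group means and bars the SD (n = 3). The replicate 1 array is the highest of its group for Rab27b, Rala, Rab5b and Rab1a and the lowest for Rab3a, Vps37a, Rab25 and Rab4b.

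The 10 genes that were lower on the replicate 1 arrays came from several roles. Rab3a, a Rab of regulated exocytosis, read 7.48, 7.61 and 7.94 on the replicate 1 arrays and 7.97 to 8.40 on the other 6, a 0.690-fold level (0.604 to 0.787, adjusted p = 0.00696). Rab25 was at 0.741-fold (0.642 to 0.856), the recycling Rab4b at 0.753-fold (0.659 to 0.859), Rab8a, which acts in transport to the cell surface and the cilium, at 0.780-fold (0.686 to 0.885) and Rab11b, a relative of Rab11a, at 0.798-fold (0.706 to 0.901). Rab24, a Rab linked to autophagy, was at 0.775-fold (0.685 to 0.876). The ATPase gene Vps4a was at 0.794-fold (0.715 to 0.883) and the ESCRT-III gene Chmp3 at 0.825-fold (0.737 to 0.924). The remaining call was the early endosome Rab15. Rab27b and Rab3a, both secretory Rabs, thus moved in opposite directions.

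Vps37a, an ESCRT-I subunit, read 9.23, 9.18 and 9.26 on the replicate 1 arrays and 9.56 to 9.97 on the other 6, a 0.686-fold level (0.597 to 0.788, adjusted p = 0.00749). Its second probe set gave 0.25 on the log2 scale, in the opposite direction and also past the threshold (adjusted p = 0.0496), and the mean of the probe sets gave -0.15, so the direction for the gene was not settled. Calls for Rab27b, Rala, Rab3a and Vps37a were kept in 9 of 9 fits that left out 1 array. Those for Rab25, Rab4b, Rab8a and Rab5b were kept in 7, for Rab11b, Rab24 and Vps4a in 6, for Rab1a in 3, for Chmp6 and Rab6a in 2, for Chmp3 in 1 and for Rab15 in 0.

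The other genes described above did not pass in this comparison. Hgs was at 0.851-fold (0.756 to 0.957, adjusted p = 0.0594) and Rab7 at 0.862-fold (0.772 to 0.962, adjusted p = 0.0613), each lower on the replicate 1 arrays of all 3 groups without overlap. An unadjusted p under 0.05 was found for 23 of the 75 genes, against 35.7% of all tested genes, and the interval lay within 1.5-fold for 68, against 81.7%. Such separation in either direction was seen for 19 of the 75 genes (6 higher and 13 lower), against 23.2% of all tested genes. Stam, Tsg101, Sdcbp, Vps4b, Chmp4b, Rab11a and Alix lay between 0.931-fold and 1.05-fold, with adjusted p from 0.372 to 0.879.

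**Figure D4:**
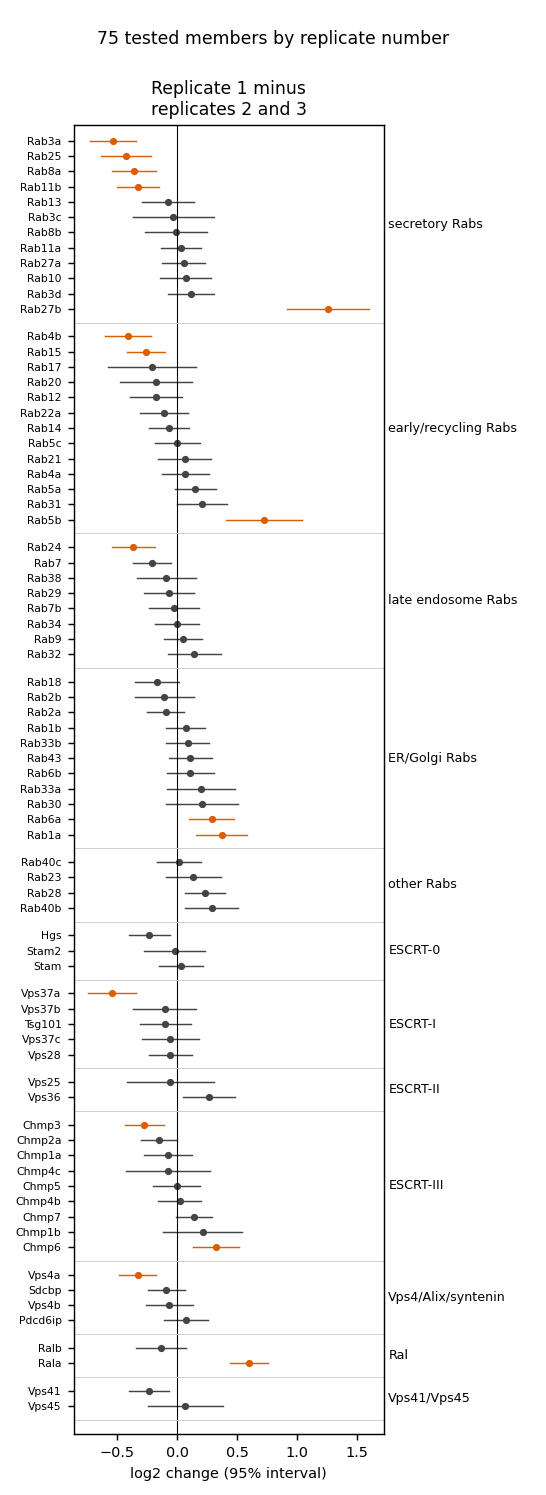
Log2 difference of the 75 tested genes between the replicate 1 arrays and the replicate 2 and 3 arrays (points) with 95% intervals (lines), from a limma model that also holds the group, by role. Orange marks the 16 genes with an adjusted p under 0.05, with Rab27b at 1.26 the farthest from 0.

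Markers of platelets and of several other cell types differed by replicate number too. All 6 tested platelet markers were higher on the replicate 1 arrays, with a median log2 difference of 0.597, and 4 passed (Pf4 at 1.61-fold, Ppbp at 1.87-fold, Gp9 at 2.34-fold and Treml1 at 1.42-fold). The summed signal of the list was 4134 to 6392 on the replicate 1 arrays and 2098 to 4332 on the other 6. At 24 h and 48 h the replicate 1 array was the highest of its group for all 6 markers, as for Rab27b: Pf4 read 10.64 against 10.00 and 9.86 at 24 h, and 10.75 against 10.18 and 9.21 at 48 h. In controls, replicates 1, 2 and 3 read 9.19, 7.95 and 7.87 for Rab27b, 10.20, 10.38 and 9.41 for Pf4 and 8.19, 8.19 and 6.87 for Gp9. All 6 tested neutrophil markers were higher (0 passed, median 0.804, summed signal 10130 to 27338 against 6880 to 14900), and all 6 cardiac muscle markers were higher (1 passed, median 0.437, 10785 to 13440 against 5699 to 12513). The 3 tested adipocyte markers were higher too (1 passed, median 0.694). The neutrophil and adipocyte medians were thus above that of the platelet list. Of all tested genes 8.58% passed as higher and 10.2% as lower. Alveolar type 2 markers were above 0 for 1 and below for 7 of 8 (1 passed, summed signal 51593 to 54577 against 62294 to 72842), and airway markers were below 0 for 5 of 5 (0 passed). B cell markers were below 0 for 4 of 5 (1 passed, median -0.447), T cell markers for 4 of 4 (0 passed, median -0.136), macrophage markers for 4 of 5 (1 passed) and endothelial markers for 4 of 6 (0 passed). Of the 7 mast cell and basophil markers 0 were tested and 5 were detected on 0 arrays, Cpa3 and Ms4a2 among them. The signal ratio of the 3' to the 5' Actb probe set was 1.16 to 1.22 on the replicate 1 arrays and 1.24 to 1.38 on the others, and that of Gapdh was 0.816 to 0.908 and 0.74 to 0.956. The part of blood cells, tissue makeup or RNA quality in the Rab27b difference was not tested.

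**Figure D5:**
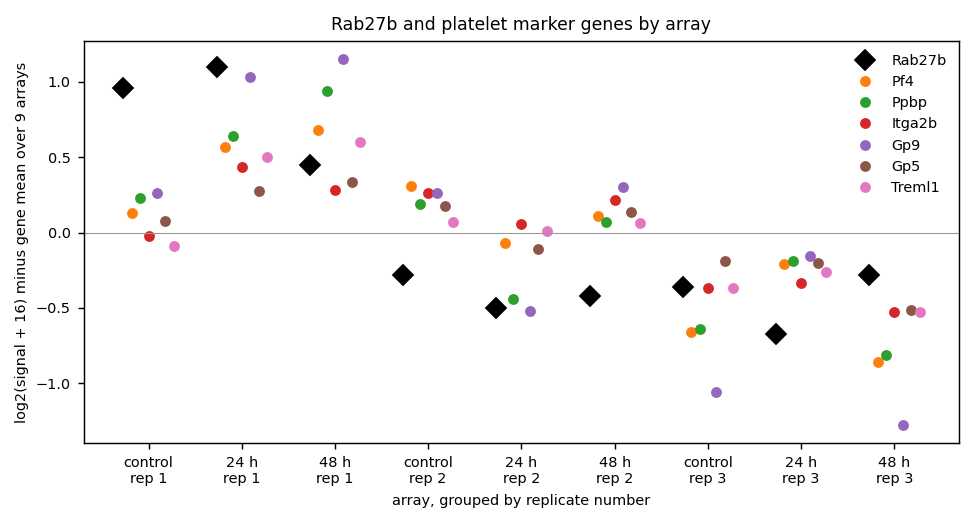
Rab27b (black diamonds) and 6 platelet marker genes (coloured circles) on each of the 9 arrays, as log2(signal + 16) minus the gene's own mean over the 9 arrays (vertical axis). Rab27b is above its mean on the 3 replicate 1 arrays only, and all 6 platelet genes have their group's highest value on the replicate 1 array at 24 h and 48 h. In controls, replicate 2 is above replicate 1 for Pf4, Itga2b, Gp5 and Treml1 (8.94 against 8.65 for Itga2b). It is level with replicate 1 for Gp9 (8.19 on both) and just below it for Ppbp (10.88 against 10.92).

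Alternative probe sets limit what can be said of several genes. Of the 75 genes 35 had more than 1 tested probe set, and the signs of their probe sets differed for 15 genes at 24 h, 21 at 48 h, 19 between the times and 12 between replicate numbers. Alix is the clearest case: its reported probe set differed by 0.07 on the log2 scale between replicate numbers, but others gave 1.31 (adjusted p = 0.00869) and 0.71 (adjusted p = 0.0103), and the remaining 2 gave -0.15 and -0.04. For Rab10 the 3 probe sets gave 0.07, 0.55 and 0.37, and for Rab7 the second probe set passed at -0.49 (adjusted p = 0.00704) where the first missed. Chmp4b gave 0.02 and -0.36 (adjusted p = 0.0285). Both probe sets of Rab24, Rab6a and Chmp3 passed in the same direction. At 48 h the unreported Alix probe sets gave log2 changes of -0.6 to 0.21 against control. Against 24 h they gave -0.79 to 0.09, and none passed in either comparison.

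Regulators and partners of the same pathway, taken from lists drawn up with earlier results of these data known, gave no call with exosomes either: 0 genes of any list passed by limma at 24 h, at 48 h or between the times. The tested genes numbered 6 for Rab prenylation and GDI, 25 for the GEFs and GAPs that switch Rabs on and off, 16 for Rab effectors, 13 for further ESCRT and ubiquitin sorting genes, 13 for HOPS, CORVET and retromer, 5 for the exocyst and 15 for endosomal SNAREs. List medians ran from -0.031 to 0.05 at 24 h and from -0.077 to 0.013 at 48 h. By replicate number 4 of 25 GEFs and GAPs were higher and 0 lower, where 8.58% of all tested genes were higher and 10.2% lower. Among them were Evi5, a GAP-domain protein, at 1.76-fold (1.51 to 2.04) and the GEF Dennd5a at 1.20-fold (1.07 to 1.34). Of the 16 effectors 3 were higher and 1 lower, including the dynein adaptor Bicd2 of Rab6 at 1.74-fold (1.49 to 2.02) and Rilpl1 at 1.29-fold (1.13 to 1.48).

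Of the further ESCRT genes 3 were lower and 0 higher by replicate number, with 11 of 13 below 0 and a median of -0.175. They included Stambp, a deubiquitinase that acts with Stam, at 0.783-fold (0.695 to 0.881) and Ist1, an ESCRT-III partner, at 0.792-fold (0.708 to 0.887). The HOPS subunits Vps39 at 0.735-fold (0.654 to 0.826) and Vps16 at 0.770-fold (0.664 to 0.892) were lower, as was Exoc8 of the exocyst at 0.753-fold (0.668 to 0.849), where Exoc1 was at 0.901-fold (0.802 to 1.01). Rabif, a Rab chaperone, was higher at 1.27-fold (1.11 to 1.44), where the Rab prenylation subunit Rabggta was at 0.840-fold (0.704 to 1.0). The SNARE Vamp2, of regulated exocytosis, was at 0.537-fold (0.467 to 0.616) and Vamp7, of lysosomal exocytosis, at 1.36-fold (1.22 to 1.52), with 3 SNAREs higher and 2 lower. Like the Rabs themselves, the SNAREs of exocytosis thus held genes on both sides, beside a background of 18.8%.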

How the data were processed

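Total RNA of each of the 9 lung samples was amplified once, labelled with biotin and hybridised to an Affymetrix mouse array, per the labels' protocols. The deposited sample files give for each of 22690 probe sets a signal intensity, scaled by the authors to a common trimmed mean of 500.1 to 500.2, together with a p-value for its detection, as the deposited headers name them. The sources used here name no software or summary method, and the chip the labels name holds more transcripts than the files have probe sets. An array has no read depth, so the number of arrays limits precision.

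Signals were taken as log2(signal + 16) and quantile normalised, without 64 control probe sets. Probe sets with a detection p under 0.05 on every array of at least 1 group were tested (15886 probe sets, 9215 genes) with limma 3.58.1 in R 4.3.3, with Benjamini-Hochberg adjustment over all of them, a threshold of 0.05 and 95% intervals. The offset makes changes of dim genes look smaller. The fit was tested on simulated data for 48 h against control, with 100 probe sets changed by 1 and 100 by 2 on the log2 scale. Without the replicate number it recovered 63% and 95% of them, with 4 false calls among unchanged probe sets. With the replicate number as a block it recovered 82% and 99%, with 14 false calls. A change of 1 on the log2 scale could therefore be missed. Genes came from GEO's platform annotation, in which 20393 probe sets named 1 gene, 691 several and 1606 none, and updating through Entrez identifiers changed 0 symbols. Each gene was read by its highest-mean probe set, and 3 probe sets naming one of the genes and another gene were not used. Rab35 had no probe set of its own among those used.

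Genes were named by rule: 17 measured exosome genes in each comparison, every gene past the threshold (the 15 with the largest change), or, where none passed, the 5 highest and 5 lowest by moderated t, and for pathway lists the 2 smallest p-values. Rab15, beyond the 15, was named after its value was seen. The genes, lists and the replicate 1 comparison were chosen with earlier results of these data known. Same-numbered arrays deviated together (9 pairs, r 0.275 to 0.651, against -0.561 to 0.308 for different numbers). Deviations were taken from group means and sum to 0 within a group. Higher values for same numbers thus force lower ones for different numbers, and the ranges are not independent. These ranges overlapped, and whether the numbers pair the samples was not settled. Folds and intervals of the group comparisons came from the fit without the replicate number, so differences between numbers stayed in their spread. Another fit had the replicate number as a block. Alternatives were the block, offsets of 1 and 64, other filters and normalisations, averaged probe sets, an intensity trend, the authors' series table under its own labels (equal to the files within 0.051, except 273 probe sets of 1 column), and leaving out single arrays. Of sample columns 0 were unused.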

Additional observations from a re-analysis of the deposited data

How the results depend on the processing

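The counts of 0 for the 3 group comparisons held in each alternative run, the replicate block included, and the block changed no other call. The medians under the block (0.0 at 24 h, 0.005 at 48 h and 0.007 between the times) are unchanged by construction. Each group has 1 array of each replicate number. Under the block 2.84%, 4.13% and 4.85% of all tested genes had an unadjusted p under 0.05, against 1.06%, 1.3% and 1.49% without it, and 0 passed. Leaving out 1 array moved the medians to -0.02 to 0.027 at 24 h, -0.016 to 0.009 at 48 h, -0.001 to 0.022 between the times and -0.037 to -0.001 between replicate numbers, and the count of 16 to 4 to 13. That count was 11 without a detection filter and 23 with probe sets averaged. It was 0 in the series table, in which control replicate 2 takes the place of control replicate 1. The cause of these shifts was not tested. The series table exchanges groups by construction, and reversed 58 values.

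With median centring the reversed log2 values at 24 h were Rab11a 0.021. With median centring the reversed log2 values at 48 h were Hgs 0.001, Pdcd6ip 0.004, Rab7 0.048. With median centring the reversed log2 values between replicate numbers were Chmp4b -0.04, Rab11a -0.009. Without the quantile step the reversed log2 values at 48 h were Rab7 0.013. Without the quantile step the reversed log2 values between replicate numbers were Chmp4b -0.026. With probe sets averaged the reversed log2 values at 24 h were Chmp4b -0.046, Pdcd6ip 0.067, Rab11a 0.001, Ralb 0.009. With probe sets averaged the reversed log2 values between the times were Pdcd6ip -0.17, Rab27b 0.044. With probe sets averaged the reversed log2 values at 48 h were Rab7 0.010, Stam 0.003. With probe sets averaged the reversed log2 values between replicate numbers were Chmp4b -0.17. In the series table the reversed log2 values at 24 h were Chmp1b 0.083, Chmp4c 0.42, Pdcd6ip 0.019, Rab12 -0.17, Rab14 0.18, Rab1a -0.18, Rab25 -0.11, Rab27a 0.054, Rab27b 0.19, Rab30 -0.15, Rab32 0.13, Rab5a 0.081, Rab5b 0.41, Rab7 0.015, Sdcbp -0.075, Tsg101 -0.16, Vps45 0.060, Vps4a -0.064, Vps4b -0.035. In the series table the reversed log2 values between the times were Chmp1a 0.099, Chmp4b 0.018, Hgs 0.018, Pdcd6ip -0.048, Rab11a -0.023, Rab23 -0.11, Rab27a -0.098, Rab38 -0.022, Rab3c -0.051, Rab3d 0.088, Rab5a -0.11, Rab5c -0.071, Rab7 -0.10, Rala 0.078, Ralb -0.046, Sdcbp 0.15, Stam 0.078, Tsg101 0.18, Vps45 -0.33. In the series table the reversed log2 values at 48 h were Chmp4b 0.12, Hgs 0.041, Rab10 -0.013, Rab11a -0.025, Rab14 0.012, Rab1a -0.17, Rab23 -0.29, Rab27b 0.059, Rab40b -0.16, Rab4a 0.072, Rab5b 0.39, Rala 0.12, Ralb -0.10, Stam 0.14, Stam2 0.084, Vps4a -0.031, Vps4b -0.015. In the series table the reversed log2 values between replicate numbers were Chmp4b -0.016, Rab27a -0.035, Stam -0.005. Without the 3 replicate 1 arrays (added once the data had been seen) the reversed log2 values at 24 h were Hgs -0.005. Without the 3 replicate 1 arrays (added once the data had been seen) the reversed log2 values between the times were Hgs 0.032, Pdcd6ip -0.025, Rab11a -0.023, Rab27a -0.018, Rab27b 0.23. Without the 3 replicate 1 arrays (added once the data had been seen) the reversed log2 values at 48 h were Hgs 0.027, Rab11a -0.053. At 24 h, with 1 array left out, the log2 ranges that crossed 0 were Rab1a -0.09 to 0.17, Rala -0.12 to 0.28, Chmp1b -0.38 to 0.041, Hgs -0.065 to 0.085, Rab27a -0.23 to 0.035, Rab27b -0.69 to 0.30, Rab5b -0.37 to 0.28, Ralb -0.11 to 0.018, Vps4a -0.082 to 0.12, Vps4b -0.004 to 0.043, Chmp4b -0.044 to 0.055. Between the times, with 1 array left out, the log2 ranges that crossed 0 were Rab27b -0.38 to 0.50, Rala -0.32 to 0.074, Vps4a -0.061 to 0.16, Hgs -0.16 to 0.077, Pdcd6ip -0.03 to 0.080, Rab27a -0.09 to 0.18, Rab5a -0.052 to 0.087, Tsg101 -0.089 to 0.063, Vps4b -0.078 to 0.079, Rab11a -0.02 to 0.083. At 48 h, with 1 array left out, the log2 ranges that crossed 0 were Hgs -0.14 to 0.096, Rab11a -0.043 to 0.060, Rab7 -0.11 to 0.043, Rab27a -0.16 to 0.079, Rala -0.24 to 0.16, Stam -0.16 to 0.022, Pdcd6ip -0.078 to 0.033, Vps4a -0.051 to 0.19, Vps4b -0.058 to 0.099, Rab27b -0.46 to 0.24, Ralb -0.009 to 0.15. Between replicate numbers, with 1 array left out, the log2 ranges that crossed 0 were Chmp4b -0.046 to 0.084, Rab11a -0.018 to 0.064, Rab27a -0.028 to 0.11, Stam -0.001 to 0.071.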
